A study of Mus musculus with 144 samples.

Results

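Interferon response genes are the genes that a cell switches on after an interferon signal. The set described here holds 37 gene symbols, chosen by name as known interferon targets and spread over 14 mouse chromosomes. All 37 were found among the 24421 symbols of the deposited tables, and all 37 passed the filter on low values in each of the 4 tables. For each symbol the transcript with the largest mean was used. Its level was followed over the day in control and knockout liver under both feeding schedules. It was also followed in endothelial and Kupffer cells isolated from livers of both genotypes.

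Interferons bind receptors on the cell surface and, through Janus kinases, activate transcription factors that enter the nucleus. A complex with STAT2 and IRF9 binds interferon-stimulated response elements, and interferon gamma acts through gamma-activated sites. The induced proteins sense viral nucleic acid, block viral replication, cut antigens for presentation, or damp the signal. Liver cells also transcribe many of these genes at a low level without infection.

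The livers came from male C57BL/6J mice on normal chow, whose age the labels do not give. The controls are labelled WT, and the knockouts are labelled REV-ERB a/b double knockout, with the deletion made in hepatocytes of adults. The genes Nr1d1 and Nr1d2 encode these REV-ERB proteins, nuclear receptors that repress transcription within the circadian clock. The data columns carry the names GFP for control and CRE for knockout, so what was delivered to the mice may differ along with the genotype and cannot be told apart from it. Whole liver was sampled in ad libitum feeding and in reverse-phase feeding, each schedule with 24 control and 24 knockout libraries: 3 at each of zeitgeber times (ZT, hours from lights-on) 1, 4, 7, 10, 13, 16, 19 and 22. Endothelial cells, which line the sinusoids, and Kupffer cells, the macrophages that reside in liver, were taken at ZT4, 10, 16 and 22, with 12 libraries per genotype and cell type. The sample titles of these cells name no feeding schedule, so they are not matched here to either liver table. Whether every library had an animal of its own is not in the labels, and the p-values therefore measure only the spread between these libraries, which may be technical.

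The liver libraries held 6785503 to 15005082 expected counts in ad libitum feeding and 19841030 to 39411748 in the reverse-phase table. The endothelial and Kupffer columns had been brought to a single distribution before deposit, so their depth is unknown. Counts of the whole Nr1d1 and Nr1d2 transcripts cannot check the deletion: median Nr1d1 was 15.7 CPM (counts scaled to the normalised total of each library) in control and 47.7 in knockout liver under ad libitum feeding. Arntl, a clock gene that the REV-ERB proteins repress, had a trough of 0.890 CPM in control and of 34.0 in knockout liver. Its lowest values under reverse-phase feeding were 1.48 in control and 27.9 in knockout. Endothelial and Kupffer markers were each highest in the cells labelled with them, and hepatocyte markers were highest in whole liver. Endothelial knockout ZT22 replicates 2 and 3 stood apart in their spread around their group, and ad libitum control ZT22 replicate 2 had 8.74% of its counts on the ribosomal transcript Rn45s. Counts and calls that change when these 3 libraries are left out are given with and without them.

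Some members held, near their starts, letters of the elements through which interferon acts. These letters were not used to choose the members. The members were chosen as known interferon targets, so a share above that of all genes is not independent support. RefSeq promoter windows on GRCm38.p6, from 250 bases before to 50 after each annotated start, were matched for 29 members. The 8 others were Oas2, Mx1, Mx2, Usp18, Dhx58, Rtp4, Zbp1 and Parp14. The core of the interferon-stimulated response element, searched on either strand as GAAA, any 2 bases and GAAA again, was in a window of 15 of the 29 members (51.7%) and of 3.99% of 27025 genes. The gamma-activated site, searched as TTCNNNGAA, which reads alike on both strands, was in 9 of 29 (31.0%) against 9.55% of genes. Both stood in 5 windows and overlapped in 2. The letters TAGGTCA, a REV-ERB half-site, were in a window of 0 of the 29 members on either strand and of 2.97% of genes. With so low a share over all genes, 0 of 29 does not set the members apart, and sites outside these windows were not searched. The 6 sequences below are the 160 bases before the start, 5′ to 3′ on the gene's strand, of 4 members higher in knockout liver under at least 1 schedule (Isg15, Ifit1, Ifit3 and Rsad2) and of both members lower in it under ad libitum feeding (Irf1 and Psmb8). Capitals mark the response element core in the first 4 and the gamma-activated site letters in the last pair.
Isg15 (chr4:156200819-156200978, minus strand): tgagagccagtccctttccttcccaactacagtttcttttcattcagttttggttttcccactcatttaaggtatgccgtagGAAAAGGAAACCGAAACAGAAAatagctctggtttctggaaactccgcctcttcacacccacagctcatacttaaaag
Ifit1 (chr19:34640729-34640888, plus strand): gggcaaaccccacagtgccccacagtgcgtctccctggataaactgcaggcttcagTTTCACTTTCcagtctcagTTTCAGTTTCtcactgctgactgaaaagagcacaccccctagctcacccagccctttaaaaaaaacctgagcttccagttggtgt
Ifit3 (chr19:34583369-34583528, plus strand): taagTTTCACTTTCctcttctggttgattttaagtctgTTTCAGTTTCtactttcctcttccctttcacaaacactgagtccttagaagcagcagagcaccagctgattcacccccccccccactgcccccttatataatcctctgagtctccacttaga
Rsad2 (chr12:26456453-26456612, minus strand): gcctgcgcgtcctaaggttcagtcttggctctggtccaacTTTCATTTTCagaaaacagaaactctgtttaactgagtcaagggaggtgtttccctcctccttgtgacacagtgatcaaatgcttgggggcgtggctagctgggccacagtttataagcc
Irf1 (chr11:53769854-53770013, plus strand): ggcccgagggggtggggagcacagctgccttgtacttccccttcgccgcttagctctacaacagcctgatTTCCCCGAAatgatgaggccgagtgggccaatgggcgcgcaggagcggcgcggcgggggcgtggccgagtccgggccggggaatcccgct
Psmb8 (chr17:34198035-34198194, plus strand): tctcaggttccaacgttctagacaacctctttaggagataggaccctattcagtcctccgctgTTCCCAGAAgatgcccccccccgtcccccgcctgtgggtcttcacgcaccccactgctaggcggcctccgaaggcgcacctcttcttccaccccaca
Isg15 had 3 overlapping matches starting 78, 72 and 66 bases before the start, Ifit1 had matches at 104 and 85 bases, and Ifit3 at 156 and 122. The Irf1 match began 90 bases and the Psmb8 match 97 bases before the start. These matches describe letters and are not measurements of binding. Among the 16 matched members that rose in ad libitum knockout liver, 9 held the response element core. The gamma-activated site was in 3 of them, Ifit2, Bst2 and Ifitm3. Of all 29 matched members, 15 and 9 held these letters. The 6 printed genes were picked from members with a match, so they do not show that either element goes with a direction of change.

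The basal level of these genes differed widely between members and between cell types. Per kilobase of transcript, control ad libitum liver had the most of Ifitm3, a membrane protein that blocks viral entry, with 535 ± 78.2 CPM per kilobase (SD, n = 24). Bst2, the tether that holds budding virus, followed with 96.3 ± 9.33, and then Irgm1, an immunity-related GTPase, with 32.2 ± 5.83. Trim25 and Psmb8 came next at 21.2 ± 2.99 and 20.8 ± 4.58, which do not differ beyond their spread. The least abundant were Ifit2 at 0.663 ± 0.188 and Mx1 at 0.606 ± 0.286 per kilobase, also within each other's spread; Mx1 and Mx2 are dynamin-like GTPases whose alleles in C57BL/6 mice are known to be defective. Ifitm3 also led in control endothelial cells, at 374 ± 80.5 signal units per kilobase, scaled to the library total (SD, n = 12), and in control Kupffer cells, at 532 ± 56.6. Second place went to Bst2 in endothelial cells, at 170 ± 20.6, and to Irf7, the transcription factor that amplifies type I interferon production, in Kupffer cells, at 174 ± 31.2. In endothelial cells Irf1 (70.9 ± 7.27), Parp14 (68.1 ± 6.04), an ADP-ribosyltransferase, and Irgm1 (54.7 ± 6.10) followed per kilobase, the first 2 within their spread. In Kupffer cells Rtp4 (98.1 ± 14.7), a receptor transporter, Irf1 (96.4 ± 12.1) and Parp14 (93.1 ± 8.15) followed, and these 3 do not differ beyond their spread. Rsad2, the antiviral enzyme viperin, stood at 2.26 ± 1.17 per kilobase in ad libitum liver, 22.8 ± 3.49 in endothelial cells and 25.3 ± 5.19 in Kupffer cells. The tables were normalised separately, so these levels are set side by side without a test. In whole liver, a change in the number of cells of a type and a change in RNA per cell cannot be told apart.

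**Figure D1:**
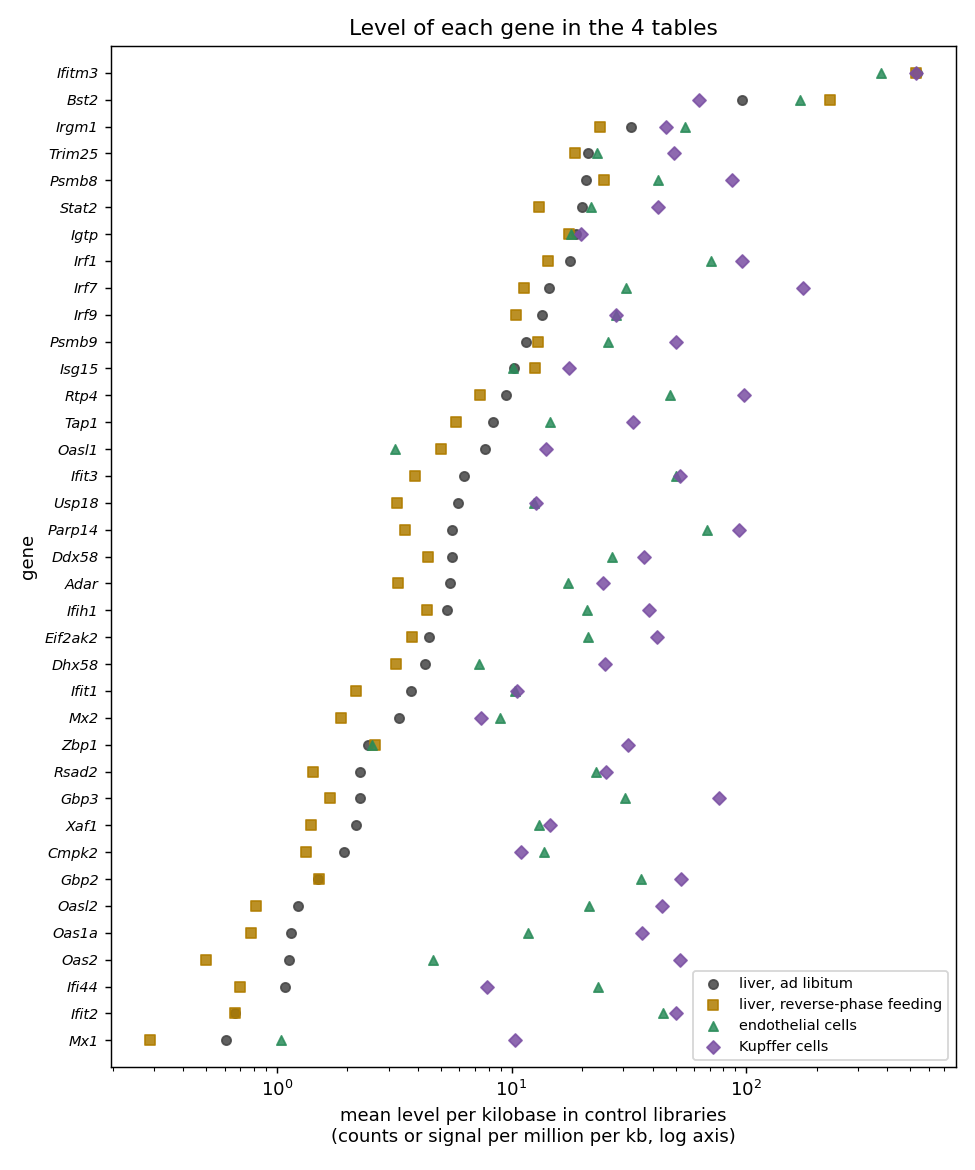
Mean level of each of the 37 members in the control libraries of the 4 tables (n = 24 in liver, n = 12 in isolated cells), scaled to the library total and per kilobase of transcript on a log axis, with 1 symbol per table. Ifitm3 has the highest mean in every table, and Rsad2 and Irf7 lie lower in whole liver than in isolated Kupffer cells.

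In knockout liver the daily mean of 12 of 20 antiviral effectors rose under ad libitum feeding, led by Rsad2, while Irf1 and Psmb8 fell. The daily mean is the average level over the 24 h of a fitted daily curve, on the log2 scale, tested in each table by edgeR's quasi-likelihood test with Benjamini-Hochberg (BH) adjustment over all genes of the table. Under ad libitum feeding, 18 of 37 members rose and 2 fell, against 13.7% and 13.5% of all 12534 genes tested. Under reverse-phase feeding, 9 rose and 2 fell, against 12.7% and 14.2% of 13810 genes. The median difference over the members was 0.23 on the log2 scale ad libitum and 0.10 in reverse-phase liver, and that over all genes was -0.004 and -0.006. Of the members that rose, 8 did so under both schedules, which is 44.4% of the ad libitum and 88.9% of the reverse-phase list. They were Ifit1, Ifit3, Rsad2, Irf9, Usp18, Ifi44, Bst2 and Cmpk2.

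Endothelial, stellate and some hepatocyte markers were also higher in knockout liver. Ad libitum 13 of 15 endothelial markers rose, and 5 of 15 did so in reverse-phase feeding. Their summed level was 209 to 534 CPM in control and 262 to 560.5 in knockout libraries ad libitum, and 247 to 499.8 against 283 to 601 under reverse-phase feeding. Among 10 stellate markers, 9 rose ad libitum, with sums of 124 to 342 in control and 185 to 441 in knockout, and 8 rose under reverse-phase feeding, with sums of 188 to 314 and 256 to 390.4. Of 9 hepatocyte markers, 5 rose and 1 fell ad libitum, and in reverse-phase liver 4 rose and 1 fell. Their summed level was 105205 to 155088 CPM in control and 96369 to 138597 in knockout libraries ad libitum, with medians of 136199 and 119820.0, and the medians under reverse-phase feeding were 121867 and 105982. Of 12 Kupffer markers, 0 were called under either schedule, and their sums were 224 to 553 in control and 217 to 549.7 in knockout ad libitum, and 216 to 531 and 230.3 to 581 under reverse-phase feeding. None of the genes on these 4 lists was at 0 in every library. With the endothelial and stellate marker score as a covariate, 9 of 37 members were called ad libitum and 6 in reverse-phase liver. In those fits 24.3% and 17.6% of all genes were called, so members were called about as often as genes at large. Genes called higher in knockout were 12.7% and 8.73% of all genes. The members' median difference was 0.16 ad libitum and 0.06 in reverse-phase liver with the score, and 0.23 and 0.10 without it. The 7 higher and 2 lower ad libitum were Isg15, Rsad2, Irf7, Usp18, Bst2, Ifitm3 and Irgm1, and Irf1 and Trim25; the 5 higher and 1 lower in reverse-phase liver were Ifit1, Ifit3, Rsad2, Usp18 and Bst2, and Psmb8. The score is the mean log2 level of the 2 marker lists per library, and its range was 3.41 to 4.60 in control and 3.89 to 4.65 in knockout ad libitum. Rsad2 had a difference of 0.61 (adjusted p = 0.024) ad libitum and of 0.96 (adjusted p = 4.1e-04) under reverse-phase feeding in these fits, by edgeR with BH adjustment.

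**Figure D2:**
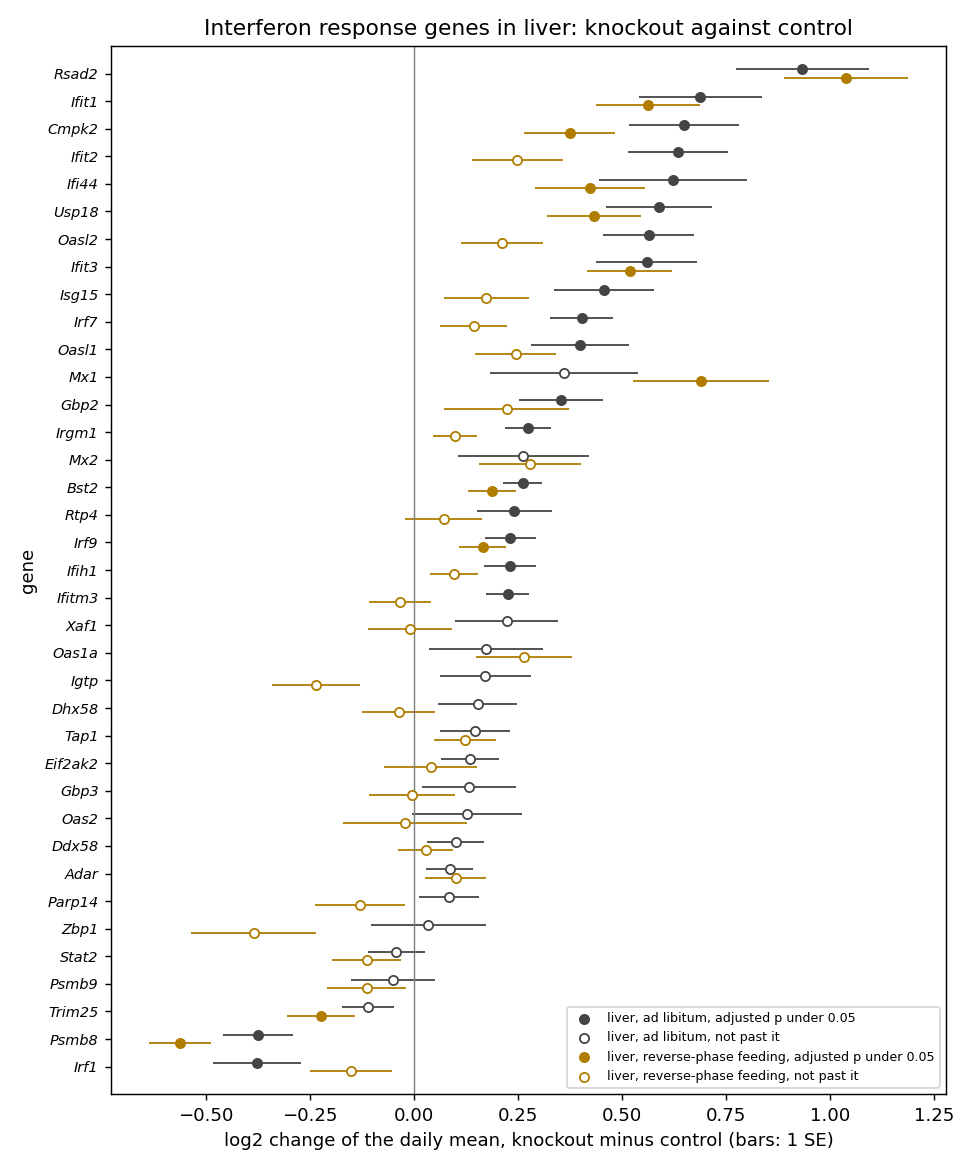
Knockout minus control difference of the daily mean (log2) of each member in liver under both schedules, with bars of 1 SE; filled points have an adjusted p under 0.05. Rsad2 lies farthest to the right under both schedules, at 0.93 and 1.04, and Psmb8 lies left of 0 under both.

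Antiviral effectors, many of which act on viral RNA, proteins or budding, were 20 of the 37 members. They were 12 of the 18 members that rose ad libitum. In reverse-phase liver 7 of the 20 effectors rose, and none fell under either schedule. Of all genes, 13.7% were higher ad libitum and 12.7% under reverse-phase feeding. Among the 4 transcription factors and signal transducers 2 rose ad libitum, as did 2 of the 4 interferon-induced GTPases. Rsad2 (mm9 chromosome 12, 27127608 to 27141317, minus strand) ranged from 3.25 to 24.1 CPM in control libraries ad libitum, with a median of 8.51, and from 6.35 to 42.6 in knockout, with a median of 15.1. The groups overlapped, and knockout libraries held both the higher median and the higher maximum. The difference was 0.93 ± 0.16 (log2, SE; adjusted p = 1.1e-05). Under reverse-phase feeding Rsad2 ranged from 2.39 to 9.77 in control, median 5.23, and from 3.11 to 21.7 in knockout, median 11.8, a difference of 1.04 ± 0.15 (adjusted p = 3.0e-07). Cmpk2, a mitochondrial nucleotide kinase whose gene starts 12762 bases from that of Rsad2 on the opposite strand, also rose under both schedules, by 0.65 ± 0.13 (adjusted p = 1.5e-04) and 0.37 ± 0.11 (adjusted p = 0.0076).

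The IFIT proteins bind foreign RNA and stop its translation, and their genes lie together on chromosome 19. Ifit2 (34625184 to 34651024) had 1.04 to 4.40 CPM in control libraries ad libitum, median 2.53, and 2.10 to 6.84 in knockout, median 3.71. The groups overlapped, and the daily mean was higher by 0.63 ± 0.12 (adjusted p = 4.2e-05). Its difference under reverse-phase feeding, 0.25 ± 0.11, did not pass (adjusted p = 0.087). Ifit3 (34658019 to 34663472) had 4.02 to 12.02 in control and 6.91 to 23.5 in knockout libraries under reverse-phase feeding, with medians of 7.92 and 10.6. The groups overlapped, and the difference was 0.52 ± 0.10 (adjusted p = 8.2e-05). Ifit1 (34715379 to 34724499) had 2.91 to 12.02 in control and 3.22 to 20.6 in knockout, medians 4.75 and 8.61, a difference of 0.56 ± 0.13 (adjusted p = 4.9e-04) in the same schedule. The reads of these similar genes may be split between paralogs by the authors' counting, whose treatment of shared reads is not given in the sources used here.

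Bst2 (mm9 chromosome 8, 74058161 to 74061336) was the most abundant effector after Ifitm3. Its control libraries held 62.8 to 89.3 CPM ad libitum, median 72.2, and its knockout libraries 67.3 to 109.9, median 89.2. The difference was 0.26 ± 0.046 (adjusted p = 1.2e-05), and 0.19 ± 0.058 (adjusted p = 0.011) under reverse-phase feeding. Oasl2, one of the oligoadenylate synthetase-like proteins, had 1.715 to 6.597 in control and 3.30 to 8.39 in knockout libraries ad libitum, medians 3.78 and 5.18. It rose by 0.56 ± 0.11 (adjusted p = 5.7e-05), and its reverse-phase difference of 0.21 ± 0.099 did not pass (adjusted p = 0.11). Mx1 had 0.272 to 1.39 in control and 0.356 to 2.69 in knockout libraries under reverse-phase feeding, medians 0.810 and 1.34. It rose there by 0.69 ± 0.16 (adjusted p = 9.0e-04), and its ad libitum difference of 0.36 ± 0.18 did not pass (adjusted p = 0.13). The other effectors that rose ad libitum were Isg15, Ifit1, Ifit3, Oasl1, Ifi44, Rtp4 and Ifitm3, by 0.23 to 0.69. The Rtp4 call was lost in 15 of 48 fits that each left out 1 library and with no filter on low counts. Oas1a, Oas2, Mx2, Xaf1, Parp14, Eif2ak2 and Adar did not pass under either schedule, with differences from -0.13 to 0.28.

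The signal-carrying factors moved apart. Irf7 (mm9 chromosome 7, 148449082 to 148452323) had 19.1 to 36.96 CPM in control libraries ad libitum, median 27.2, and 20.5 to 65.1 in knockout, median 30.7. It rose by 0.40 ± 0.076 (adjusted p = 4.3e-05), with overlapping groups, and its reverse-phase difference of 0.14 ± 0.081 did not pass (adjusted p = 0.19). Irf9, a DNA-binding partner of STAT2, rose by 0.23 ± 0.061 (adjusted p = 0.0028) and 0.17 ± 0.057 (adjusted p = 0.023). Stat2 did not pass under either schedule, with -0.04 ± 0.068 and -0.11 ± 0.083. Irf1, a factor strongly induced by interferon gamma, fell by 0.38 on the log2 scale ad libitum (SE 0.11, adjusted p = 0.0060), from 18.3 to 59.2 in control, median 37.5, to 7.80 to 57.9 in knockout, median 31.6. Its reverse-phase difference was -0.15 ± 0.099 (adjusted p = 0.27).

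Among the sensors of viral nucleic acid, Ifih1, the long double-stranded RNA sensor MDA5, rose ad libitum by 0.23 ± 0.062 (adjusted p = 0.0036), and it did not pass under reverse-phase feeding (0.10 ± 0.058, adjusted p = 0.22). Ddx58, which encodes the RNA sensor RIG-I, Dhx58, its relative LGP2, and Zbp1, a sensor of Z-form nucleic acid, did not pass under either schedule. Usp18, the protease that removes ISG15 and blocks interferon receptor signalling, rose under both. Its control libraries held 3.68 to 9.71 CPM under reverse-phase feeding, median 5.44, and its knockout libraries 3.34 to 16.8, median 7.68. The difference was 0.43 ± 0.11 (adjusted p = 0.0026) there and 0.59 ± 0.13 (adjusted p = 3.4e-04) ad libitum. Trim25, the ubiquitin ligase that activates RIG-I, fell under reverse-phase feeding by 0.22 on the log2 scale (SE 0.081, adjusted p = 0.033), a call that was lost in 18 of 48 fits that each left out 1 library.

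Antigen-processing members did not rise. Psmb8 (mm9 chromosome 17, 34335140 to 34338399), a catalytic subunit of the immunoproteasome, had 19.2 to 41.6 CPM in control libraries under reverse-phase feeding, median 31.1, and 13.6 to 36.8 in knockout, median 20.01. The groups overlapped. It fell by 0.56 on the log2 scale (SE 0.075, adjusted p = 4.4e-08), and by 0.37 ad libitum (SE 0.084, adjusted p = 4.9e-04). Its neighbours Psmb9, another immunoproteasome subunit, and Tap1, the peptide transporter, did not pass under either schedule, with differences from -0.11 to 0.15. Of the interferon-induced GTPases, which attack the vacuoles of intracellular pathogens, Irgm1 rose ad libitum from 50.2 to 102 in control, median 71.3, to 59.7 to 133 in knockout, median 85.2. This was a difference of 0.27 ± 0.055 (adjusted p = 1.1e-04). Gbp2 also rose ad libitum, by 0.35 ± 0.10 (adjusted p = 0.0061), and Gbp3 and Igtp did not pass. Under reverse-phase feeding 0 of these 4 GTPase genes passed.

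The effect of knockout on the daily mean was not shown to differ between schedules. In a joint fit of the 96 liver libraries, 0 of 37 members passed the test of that difference by edgeR with BH adjustment, against 0.207% of 13535 genes, and DESeq2 also called 0. An unadjusted p under 0.05 was reached by 6 members, for which the share of all genes is not given. The lowest adjusted p was 0.41, for Ifitm3.

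More of these genes were called rhythmic in knockout than in control liver. A rhythm was called where the 24-h cosine and sine terms of a gene differed from 0 together. Ad libitum, 17 of 37 members were rhythmic in control and 32 in knockout liver, against 48.1% and 44.1% of all genes. All 17 were also called in knockout. Without control ZT22 replicate 2, 15 were rhythmic in control, since Usp18 (adjusted p = 0.056) and Eif2ak2 (adjusted p = 0.071) no longer passed, and the 32 in knockout remained. The other 15 were Ifit1, Ifit2, Ifit3, Irf1, Irf9, Oasl2, Oas1a, Ifi44, Ifih1, Zbp1, Bst2, Ifitm3, Gbp2, Gbp3 and Igtp. Under reverse-phase feeding 14 were rhythmic in control and 27 in knockout, 12 of them in both, against 41.2% and 36.8% of all genes. The fitted peak-to-trough range was larger in knockout for 34 of 37 members ad libitum, where 44.1% of all genes had a larger range in knockout, and for 29 of 37 under reverse-phase feeding, where 46.2% had. The members' median range was 1.43-fold in control and 1.87-fold in knockout ad libitum, and 1.37-fold and 1.68-fold under reverse-phase feeding. Marker genes of endothelial, Kupffer and stellate cells had fewer such calls in knockout: ad libitum, 14 of 15 endothelial markers were rhythmic in control and 7 in knockout, with a median range of 1.92-fold and 1.31-fold, as were 9 and 2 of 12 Kupffer markers and 6 and 5 of 10 stellate markers. Under reverse-phase feeding these counts were 9 and 4, 2 and 0, and 5 and 3. Of 9 hepatocyte markers, 6 were rhythmic in each genotype ad libitum and 3 in each under reverse-phase feeding. The part of these markers' rhythms in those of the members was not tested. A call in 1 genotype and not in the other does not show that the rhythms differ, and few members passed the test of that difference.

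That test, which asks whether the cosine and sine terms differ between genotypes, was passed ad libitum by Irf7 (adjusted p = 0.018), Ifih1 (adjusted p = 0.028) and Irf1 (adjusted p = 0.043), against 3.31% of all genes. In that test, 14 members and 14.1% of all genes had an unadjusted p under 0.05 ad libitum. The single times below were picked after the values were seen, and the share of all genes that separate at them is not given. In Irf7 at ZT1 the control libraries held 19.1, 19.1 and 29.0 CPM and the knockout libraries 64.6, 35.9 and 43.9. Every knockout library was above every control library at that time, whereas at ZT10 the means were 34.8 ± 1.98 and 33.4 ± 4.07 (SD, n = 3). Its fitted peak stood at ZT9.35 ± 0.98 (SE) in control and ZT4.38 ± 0.66 in knockout. For Ifih1 at ZT1 the control libraries held 27.6, 28.4 and 38.4 and the knockout libraries 60.0, 48.4 and 56.6, again without overlap, and its peak-to-trough range was 1.28-fold in control and 1.87-fold in knockout. For Irf1 at ZT7 the control libraries held 51.2, 59.2 and 49.7 and the knockout libraries 31.3, 35.8 and 32.9, here with the knockout lower. Its range was 1.40-fold in control and 2.29-fold in knockout, with a knockout peak at ZT0.21 ± 0.70. The count of 3 rested on single libraries: it was 1 without control ZT1 replicate 1, control ZT10 replicate 1, control ZT22 replicate 1, knockout ZT1 replicate 1 or knockout ZT10 replicate 3, and 5 without knockout ZT22 replicate 2. The Irf1 call was lost in 22, the Ifih1 call in 7 and the Irf7 call in 1 of 48 such fits. Without control ZT22 replicate 2, Irf7 and Ifih1 passed and Irf1 did not (adjusted p = 0.063). With time as a factor none of the 3 passed, with adjusted p of 0.12 for Irf7, 0.13 for Ifih1 and 0.25 for Irf1. Under reverse-phase feeding 0 members passed, against 1.48% of all genes. An unadjusted p under 0.05 was reached by 12 members and by 10.7% of all genes. The lowest adjusted p was 0.061, for Irf9, and DESeq2 called 4.

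**Figure D3:**
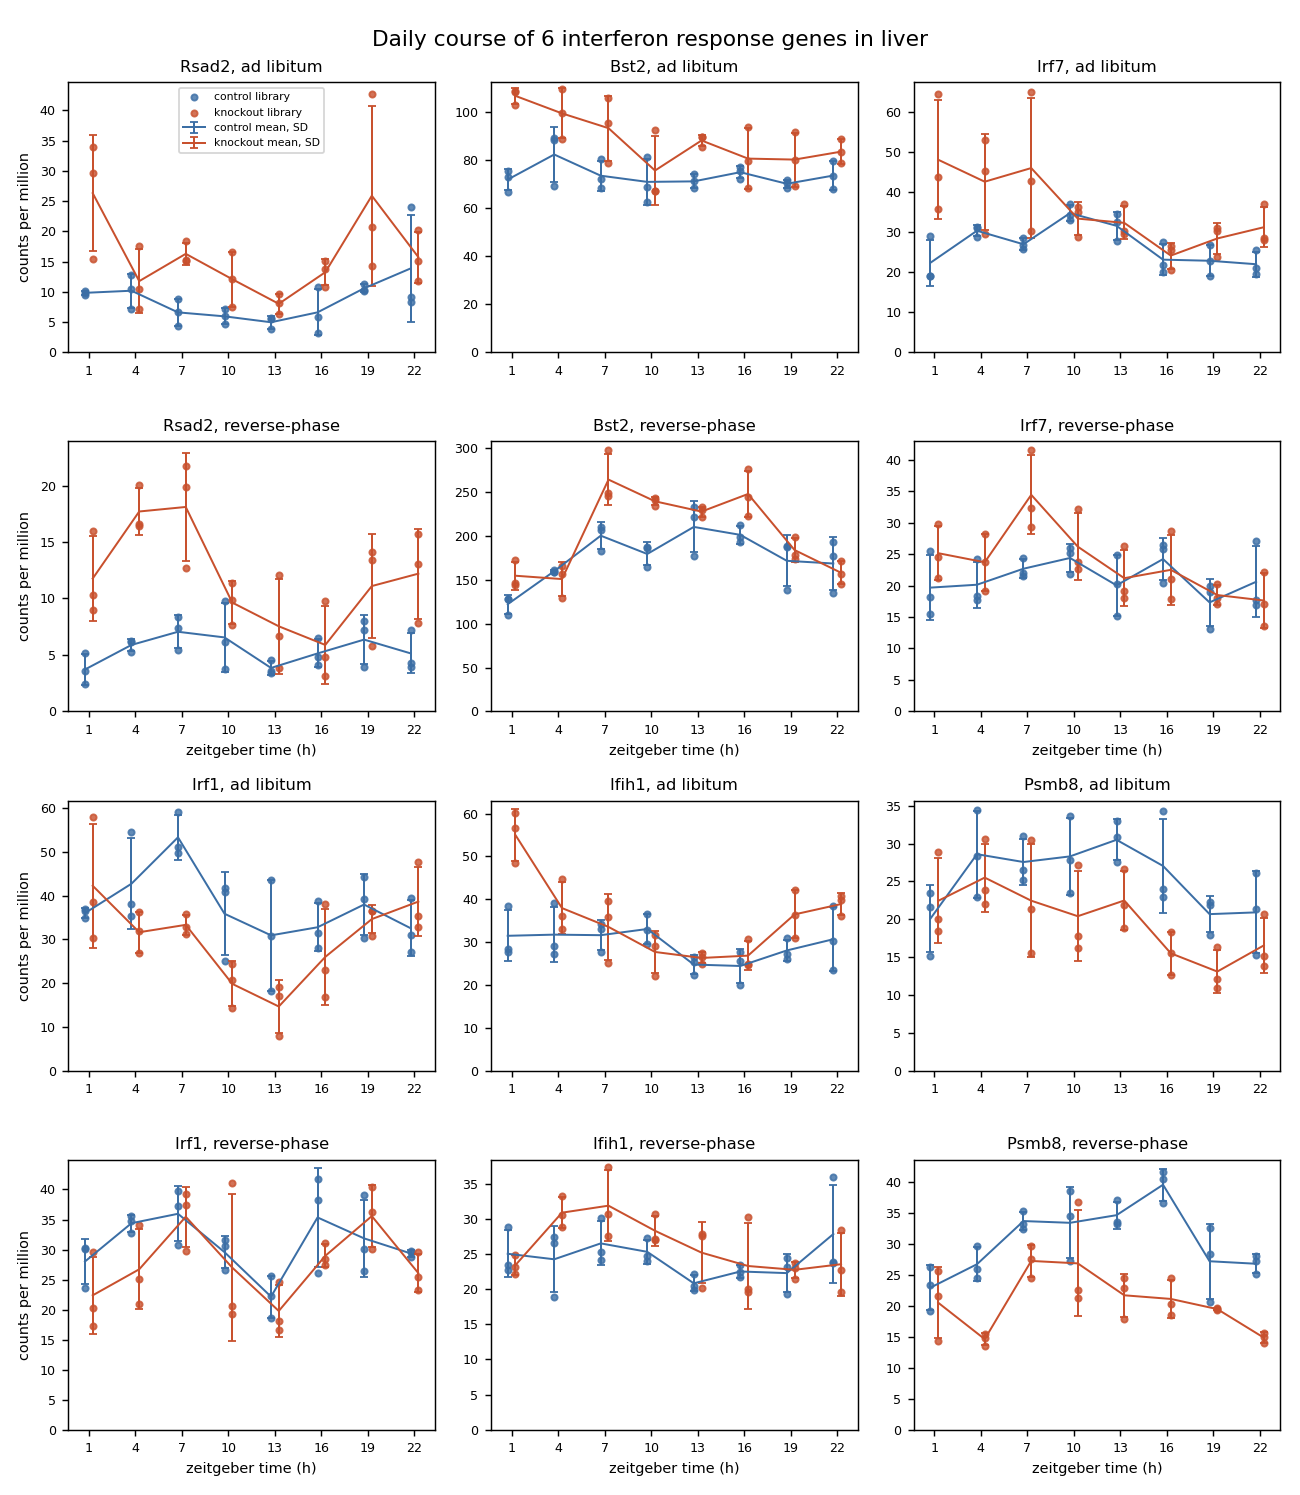
Levels of Rsad2, Bst2, Irf7, Irf1, Ifih1 and Psmb8 (CPM) by zeitgeber time (h) in control and knockout liver, 1 panel per gene and schedule; points are libraries, and lines join the means of 3 with bars of 1 SD. Ad libitum, the knockout libraries of Irf7 and Ifih1 stand above the control libraries at ZT1, and those of Irf1 stand below at ZT7.

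The members that were rhythmic in knockout liver peaked close together ad libitum, around lights-on and most of them in the early light phase. Of the 32, 21 peaked between ZT0 and ZT6, 10 between ZT18 and ZT24 and 1, Psmb8, later, with a mean peak at ZT1.22. All genes rhythmic in ad libitum knockout liver were spread over the day, with 24.5% between ZT0 and ZT6 and 24.4% between ZT18 and ZT24. Ddx58 had the lowest adjusted p (1.1e-07), with 2.09-fold range and a peak at ZT23.9 ± 0.49. Ifih1 followed (2.7e-07), and then Isg15, the ubiquitin-like modifier, with 3.05-fold range and a peak at ZT1.76 ± 0.53 (5.6e-07). Oasl1, which dampens IRF7 translation, had a 3.21-fold range and peaked at ZT21.5 ± 0.53 (9.4e-07). In control liver the 17 rhythmic members had a mean peak at ZT2.19, and Cmpk2 had the lowest adjusted p (5.2e-06), with 3.48-fold range and a peak at ZT23.0 ± 0.60. Ddx58, Xaf1, an apoptosis-promoting factor, and Psmb9 came next, with ranges of 1.68-fold, 2.32-fold and 1.93-fold.

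Under reverse-phase feeding the peaks lay later in the day. The 27 rhythmic members of knockout liver had a mean peak at ZT6.23, with 11 between ZT0 and ZT6 and 14 between ZT6 and ZT12. Of all genes rhythmic in reverse-phase knockout liver, 19.4% and 28.3% peaked in these 2 windows. Irgm1 had the lowest adjusted p (4.5e-08), a range of 1.85-fold and a peak at ZT6.87 ± 0.45. Isg15 peaked at ZT8.23 ± 0.49, Igtp at ZT6.15 ± 0.49 and Oasl1 at ZT6.28 ± 0.50, with ranges of 2.89-fold, 3.14-fold and 2.72-fold. The 14 rhythmic members of control liver had a mean peak at ZT10.5. Among them Trim25 peaked at ZT0.06 ± 0.61, Oasl1 at ZT7.30 ± 0.76, Zbp1 at ZT10.1 ± 0.68 and Ifitm3 at ZT13.7 ± 0.61. The 23 members rhythmic in knockout liver under both schedules peaked later under reverse-phase feeding, by a median of 6.21 h. Their range was 2.90 to 8.85 h. Shifts were counted forward around the 24-h day, so a slightly earlier peak counts as a large shift. Over the 2783 genes rhythmic in both they ran from 0.02 to 23.97 h, and their median gives no direction. A shift of 3 to 12 h was found for 21 of the 23 members and for 38.2% of those genes. For the 7 such members of control liver the median was 9.42 h, with a range of 2.46 to 15.3 h. In control liver 5 of these 7 members and 35.4% of 3293 genes had a shift of 3 to 12 h.

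The difference of the rhythm between schedules was tested in the joint fit. It was called for 18 of 37 members in control liver and for 32 in knockout liver, against 53.6% and 49% of all genes. In control liver the lowest adjusted p was that of Cmpk2 (1.4e-09), followed by Irgm1 (5.2e-07), Oasl1 (2.7e-06), Dhx58 (8.3e-05), Ifitm3 (1.6e-04) and Xaf1 (2.6e-04). In knockout liver it was that of Oasl1 (3.8e-12), then Irgm1 (4.0e-11), Igtp (1.9e-10), Isg15 (4.2e-09), Bst2 (4.9e-08) and Dhx58 (2.0e-07). Without ad libitum control ZT22 replicate 2 the counts were 18 and 31, and Irf7 was not called in knockout (adjusted p = 0.052). The members not called in knockout with all libraries were Oasl2, Oas2, Mx1, Gbp2 and Parp14. The schedules were deposited in separate tables that also differ in depth, and other differences between the tables cannot be told apart from feeding.

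**Figure D4:**
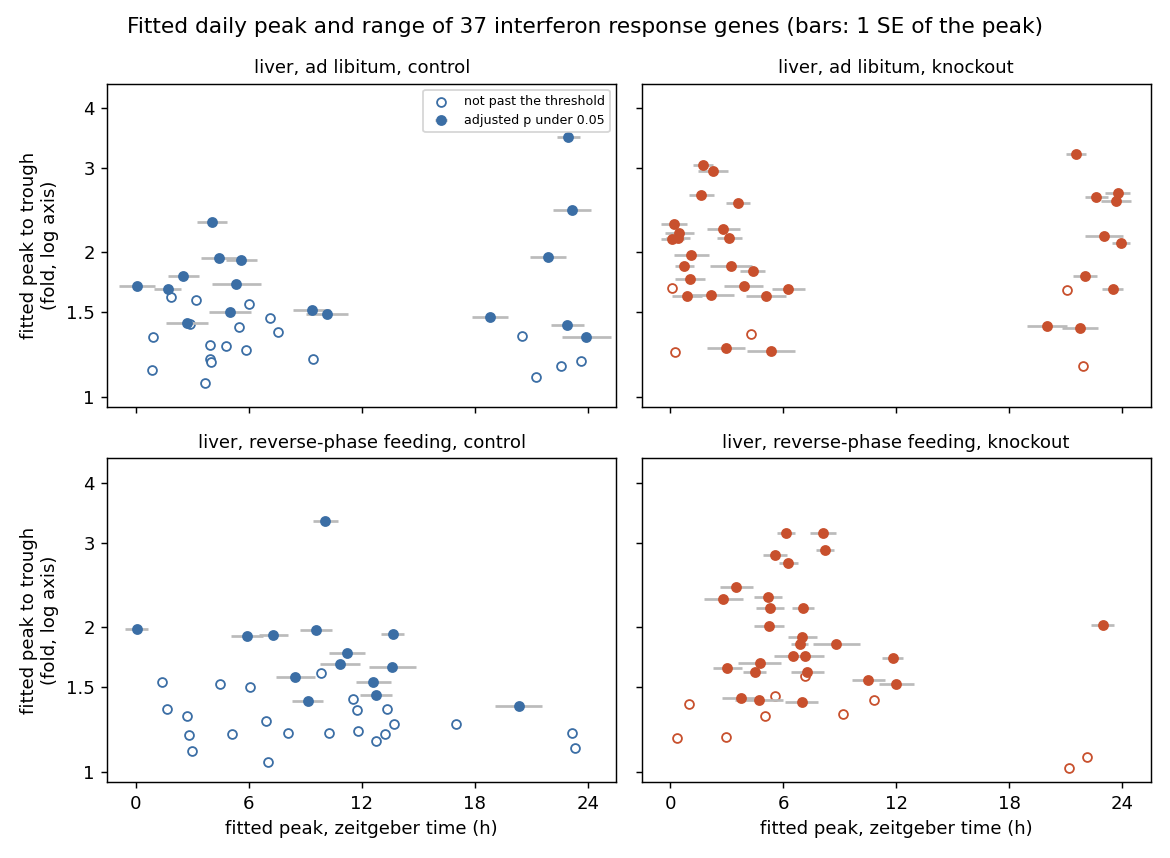
Fitted peak time (ZT, h) against fitted peak-to-trough range (fold, log axis) of the 37 members, 1 panel per genotype and schedule; filled points have an adjusted p under 0.05 for the rhythm, with bars of 1 SE of the peak, and open points do not pass. Filled knockout points lie near the turn from ZT24 to ZT0 ad libitum and mostly between ZT0 and ZT12 under reverse-phase feeding.

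At the level of single libraries, the median deviation of the 37 members from their gene means gives one score per library. Ad libitum at ZT1 the score ran from -0.26 to 0.16 in control and from 0.52 to 0.73 in knockout libraries, with no overlap. The groups also did not overlap at ZT16, where controls lay between -0.50 and -0.29 and knockouts between -0.23 and -0.09. Under reverse-phase feeding they did not overlap at ZT1, ZT4 and ZT7, with knockout scores of 0.00 to 0.26, 0.16 to 0.45 and 0.22 to 0.58, and overlapped at the other 5 times. In the isolated cells they overlapped at all 4 times. These scores are a description and carry no test, and how often other gene sets separate at these times was not examined.

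**Figure D5:**
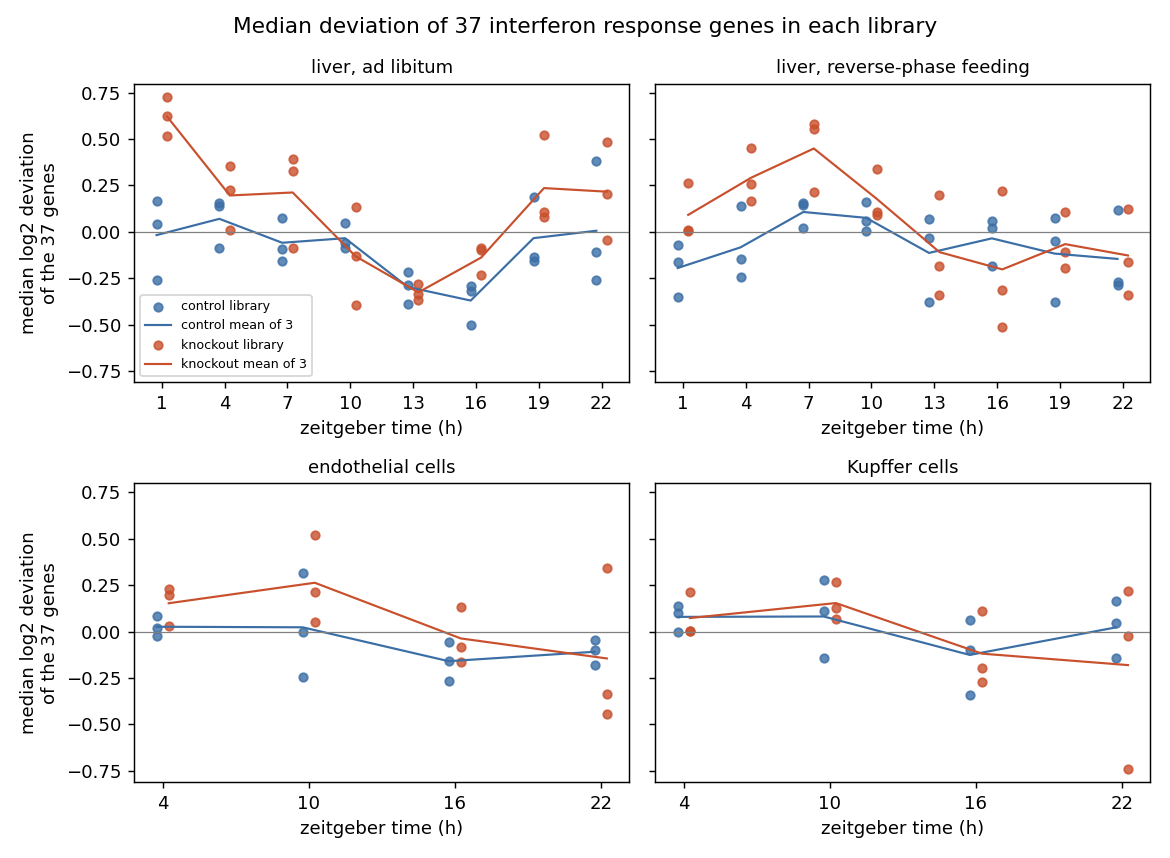
Median log2 deviation of the 37 members from their gene means in every library, by zeitgeber time (h), 1 panel per table; points are control or knockout libraries, and lines join the means of 3. Ad libitum at ZT1 the 3 knockout libraries sit between 0.52 and 0.73, above the controls.

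In endothelial and Kupffer cells, whose values were compared by limma on log2(value + 1), the members were not shown to differ between genotypes. In endothelial cells 0 of 37 were called, against 0.0319% of 12523 genes (0.024% higher, 0.00799% lower). An unadjusted p under 0.05 was reached by 5 members and by 5.40% of all genes. Ifit1 had the lowest adjusted p, 0.62, with a difference of 0.54 ± 0.17. Mx2, Ifi44 and Cmpk2 were higher by 0.44 ± 0.15, 0.37 ± 0.13 and 0.25 ± 0.096, and Psmb8 was at -0.20 ± 0.082. The difference was positive for 31 of 37 members and for 5977 of 12523 genes, with a median of 0.11 over the members and -0.006 over all genes. In Kupffer cells 0 of 37 were called, against 0.0244% of 12270 genes (0.0163% higher, 0.00815% lower). Gbp3 alone had an unadjusted p under 0.05, with -0.16 ± 0.074, against 3.98% of all genes. The median over the members was -0.02. Each other setting of limma that was run also called 0 in both cell types.

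Endothelial cells of knockout livers had 9 rhythmic members and those of control livers 0, against 13.2% and 6.13% of all genes. The 9 were Irf1, Oasl2, Xaf1, Rtp4, Gbp2, Gbp3, Irgm1, Parp14 and Eif2ak2, with a mean peak at ZT8.56. Gbp3 had the lowest adjusted p (0.0066), with a 2.02-fold range and a peak at ZT7.79 ± 0.72, and Xaf1 followed (0.0095), at ZT8.61 ± 0.78. The count rested on single libraries: it was 3 without knockout ZT16 replicate 1, 4 without ZT10 replicate 1, 5 without ZT10 replicate 2 or ZT22 replicate 2, and 19 without ZT22 replicate 3. Of 24 fits that each left out 1 library, the Rtp4 call was lost in 19, Irgm1 in 8, Oasl2 in 7, Gbp2 and Eif2ak2 in 3 each, Parp14 in 2 and Irf1 in 1, and the Gbp3 and Xaf1 calls in 0. In control cells 12 members had an unadjusted p under 0.05, against 26.6% of all genes. The test of the difference between genotypes was passed by 0 members, against 2.04% of all genes. An unadjusted p under 0.05 was reached in it by 7 members and by 22.4% of all genes. Without the 2 knockout ZT22 libraries that stood apart, 14 members were rhythmic in knockout, the 9 among them, and 5 in control cells. The shares of all genes called in that fit are not given, so these counts cannot be set against them. Summed hepatocyte markers ran from 2385 to 11286 in control and from 1695 to 26700.2 in knockout endothelial libraries, and their part in these results was not tested. In Kupffer cells 0 members were rhythmic in either genotype, against 1.96% and 1.81% of all genes. An unadjusted p under 0.05 was reached by 2 members in control and 8 in knockout, against 15.8% and 16.1% of all genes. The fitted range was larger in knockout for 31 of 37 members in Kupffer cells, against 51.1% of all genes. For endothelial cells it was larger for 25 of 37, against 54.2%. This comparison of ranges carries no test.

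The rest of the interferon pathway was read from lists of other genes. None of the 8 interferon genes listed passed the filter in any table, and in liver Ifng alone of them was listed above 0, at up to 0.212 CPM. Of the receptor genes, Ifnar2, a chain of the type I interferon receptor, rose by 0.14 ± 0.046 ad libitum (adjusted p = 0.017) and 0.16 ± 0.051 under reverse-phase feeding (adjusted p = 0.016). Its partner Ifnar1 fell ad libitum by 0.11 on the log2 scale (SE 0.036, adjusted p = 0.016). Of 5 receptor genes tested in each liver table, 1 rose and 1 fell ad libitum. Under reverse-phase feeding 1 rose and 0 fell. Another list held genes that act in interferon induction, among them Irf2, which represses, so its counts have no single direction. Of 13 tested ad libitum, 0 rose and 2 fell, and of 14 tested under reverse-phase feeding 3 rose and 3 fell. Of all genes, 13.7% were higher and 13.5% lower in the first table, and 12.7% and 14.2% in the second. Counts on lists as short as these, the receptor list included, cannot be set apart from those shares. Irf2, a repressor of interferon targets, and Mavs, the adaptor of RIG-I and MDA5, fell under both.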

How the data were processed

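Gene expression was measured by RNA-seq in 144 libraries, given in 4 tables of 34600 transcript rows. Trizol and RNeasy columns gave the total RNA for TruSeq libraries, per the labels' protocols. Per the submitters' processing notes, STAR, HOMER and mm9 were used, and the sources used here give neither versions nor settings. The authors deposited liver values of the unit expected counts, in steps of 0.5; 29.5% (ad libitum) and 31.9% (reverse-phase) were not whole and were rounded for testing. For endothelial and Kupffer cells the deposited unit is a signal, quantile normalised as read from the values, since every column of a table holds the same sorted values. A shift common to most genes is invisible there.

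Liver counts were tested with edgeR 4.0.16 (TMM, filterByExpr, robust quasi-likelihood) and log2(value + 1) of the signal with limma 3.58.1 (trend and robust fit) for genes with at least 10 in 3 libraries or more, in R 4.3.3. Each genotype had its own mean and 24-h cosine and sine terms, and a joint liver fit compared the schedules. Benjamini-Hochberg adjusted p under 0.05 over all genes of a table was called. SE was the effect divided by the square root of F. Each symbol was read from the transcript row with the largest mean share over all libraries. Levels are CPM after TMM scaling in liver and the deposited signal otherwise; per-kilobase values are scaled to the plain library total, without TMM, and divided by transcript length. All 37 members are accounted for. Those given with full values were the called members with the smallest adjusted p in each test (up to 6 for genotype and for differences between schedules, up to 4 for each rhythm, and every member called in a rhythm difference) and the 5 with the highest level per length in isolated cells; single times printed were chosen after values were seen.

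Members and lists were chosen with earlier results of these data known. Replicate numbers were not taken as pairs: the median correlation of same-numbered libraries' deviations was 0.010 to 0.062 over the 4 tables. The scripts were tested on simulated data. The alternatives were DESeq2 1.42.0, its size factors, other filters, pseudocounts and transcript rows, time as a factor, a replicate block, a marker score, and leaving out libraries. 1 item of the pathway is not reported here.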

Additional observations from a re-analysis of the deposited data

Results flagged for a closer look

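The daily rhythm of 3 members differed between control and knockout liver under ad libitum feeding, by edgeR's test of the difference with BH adjustment over all genes. The adjusted p was 0.0184 for Irf7, 0.0283 for Ifih1 and 0.0427 for Irf1. Irf7 and Ifih1 had higher knockout values at ZT1, and Irf1 had lower ones at ZT7, times picked after the values were seen. With time as a factor none of the 3 passed (adjusted p = 0.121, 0.132 and 0.25 in that order). The Irf1 call was also lost with a replicate block (adjusted p = 0.054), with no filter on low counts (0.061), without ad libitum control ZT22 replicate 2 (0.063) and in 22 of 48 fits that each left out 1 library.

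The daily rhythm differed between the feeding schedules for 18 members in control liver and for 32 in knockout liver, by the same kind of test in the joint fit of both liver tables. These shares, 48.6% and 86.5%, stand beside 53.6% and 49% of all genes. Whether the difference between schedules itself differs between genotypes was not tested.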

How the results depend on the processing

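No called member changed sign under any alternative run. Counts of called members within 1.5 times those reported are not listed. For the rhythm difference between genotypes ad libitum (3), DESeq2 called 5, the 3 among them, and time as a factor called 1, not one of the 3; under reverse-phase feeding (0), DESeq2 called 4. The marker score gave 9 and 6 called in the genotype comparison (20 and 11 without it). Without the libraries that stand apart, 5 control and 14 knockout members were rhythmic in endothelial cells (0 and 9 with them), and the shares of all genes in that fit are not given. Leaving out 1 library at a time gave 19 to 20 and 10 to 14 for genotype ad libitum and under reverse-phase feeding, 14 to 18 and 12 to 15 for the control rhythm, 31 to 33 and 24 to 28 for the knockout rhythm, and 1 to 5 and 0 to 3 for the rhythm difference. The reverse-phase rhythm difference was 3 without knockout ZT16 replicate 1, 2 without knockout ZT4 replicate 1 or ZT19 replicate 3, and 1 without control ZT4 replicate 2, ZT7 replicate 3, ZT13 replicate 1 or 2, ZT16 replicate 3 or ZT19 replicate 3, or knockout ZT7 replicate 1 or ZT13 replicate 2. In endothelial cells the control rhythm ran from 0 to 3 (2 without knockout ZT22 replicate 1, 3 without replicate 3), the knockout rhythm from 3 to 19 (3 without ZT16 replicate 1, 4 without ZT10 replicate 1, 5 without ZT10 replicate 2 or ZT22 replicate 2, 19 without ZT22 replicate 3) and the difference from 0 to 1 (1 without knockout ZT22 replicate 1). In Kupffer cells the knockout rhythm ran from 0 to 2 (2 without knockout ZT22 replicate 3), and the genotype, control rhythm and rhythm difference counts stayed at 0, as did the endothelial genotype count. In the joint fit, leaving out each replicate number gave 0 to 1 for genotype by schedule (1 without replicate 3), 13 to 17 for the control and 23 to 26 for the knockout rhythm between schedules. With the replicate number as a block, although the numbers do not pair the libraries, the genotype counts were 20, 13, 0 and 0 in the ad libitum, reverse-phase, endothelial and Kupffer tables, the control rhythm 17, 14, 0 and 0, the knockout rhythm 32, 26, 8 and 0, the rhythm difference 2, 0, 0 and 0, and the joint counts 0, 19 and 32. Low members such as Mx1, at 0.272 to 4.77 CPM in liver, rest on few reads, and the causes of these changes were not tested.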

Other observations

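A further list of 38 interferon-induced genes, none of them among the 37, was read the same way. Of 37 tested ad libitum, 10 rose and 5 fell in knockout liver, and of 38 tested under reverse-phase feeding 5 rose and 8 fell (edgeR, BH adjusted). Of all genes, 13.7% were higher and 13.5% lower in the first table, and 12.7% and 14.2% in the second. The count that fell ad libitum and the count that rose in the reverse-phase table are near those shares. Ly6e, a membrane protein of the LY6 family, rose most, from 261 ± 66.7 to 631 ± 137 CPM ad libitum (SD, n = 24) and from 186 ± 82.5 to 419.6 ± 89.9 under reverse-phase feeding. Its differences were 1.28 ± 0.079 (adjusted p = 3.7e-18) and 1.23 ± 0.086 (adjusted p = 2.7e-16). Cxcl10, a T cell chemokine, rose by 0.71 ± 0.18 (adjusted p = 0.0022) and 0.80 ± 0.23 (adjusted p = 0.0070). The 5 that fell ad libitum were Psmb10, a subunit of the immunoproteasome, Psme1 and Psme2, subunits of a proteasome activator, Tapbp, a chaperone of peptide loading, and the class I chain H2-K1. Tap2, B2m and H2-D1, other genes of antigen presentation on the list, did not pass ad libitum, with differences of -0.11, 0.07 and -0.08, nor did the members Psmb9 and Tap1; these genes were picked out after their values were seen. These 5 also fell under reverse-phase feeding, Psmb10 by 0.55 (SE 0.069, adjusted p = 9.8e-09) and Psme1 by 0.54 (SE 0.070, adjusted p = 2.9e-08).

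Within groups, the members varied together across libraries. Over the 666 pairs of members, the median Pearson correlation of deviations from the group means was 0.39 and 0.36 in the 2 liver tables (48 libraries each), 0.58 in endothelial and 0.72 in Kupffer cells (24 libraries each), and the median over all pairs of genes was at most 0.01 in size. The pairs share libraries, depth and cell mixture, so this is a description only.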
